A study of Homo sapiens with 6 samples.

Results

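Metallothioneins, their transcription factor MTF1 and a set of zinc transporters were followed in SET-2 cells treated with CPL. The genes were chosen by symbol. The list held 10 genes, namely the metallothioneins MT2A, MT1X, MT1E, MT1F and MT1G, the factor MTF1, the zinc exporters SLC30A1 and SLC30A5, and the zinc importers SLC39A10 and SLC39A14. Of these, 9 were matched to a row among the 30735 genes of the deposited table, and MT1E was not analysed here. SET-2 is an established human megakaryoblastic leukaemia line, so every library came from 1 cell line. The tested libraries were 3 of cells treated with CPL (replicates 1, 2 and 3), and the 3 control libraries (replicates 1, 2 and 3) were labelled as placebo. The labels give neither what CPL is nor its dose or time of treatment, and nothing in them says whether the replicates were grown apart. The p-values thus speak of the spread among these 6 libraries, part or all of which may be technical.

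Metallothioneins are small cysteine-rich proteins that bind zinc, copper and cadmium. When free zinc in the cell rises, MTF1 binds metal response elements in the promoters of metallothionein genes and of SLC30A1 and raises their transcription. Proteins of the SLC30 family move zinc out of the cytosol, to the outside or into organelles, and proteins of the SLC39 family move it in. Metallothionein mRNA is therefore a common readout of zinc and cadmium exposure, and it also responds to glucocorticoids and oxidative stress.

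Levels are given as FPKM, in which the authors corrected read numbers for the length of a gene and the size of its library. Whole reads recovered from these values gave depths of 15482110 to 16175158 reads in CPL libraries and 14647940 to 18239571 in control libraries, at which 3 reads on 1 kilobase equal 0.185 to 0.194 FPKM in CPL libraries and 0.164 to 0.205 FPKM in control libraries, for counting error only. CPL replicate 1 stood apart: its deviation from the 6-library mean followed the GC content of genes with a rank correlation of 0.736, against −0.475 and −0.00493 in the other CPL libraries and −0.51 to −0.115 in control libraries. Each change below is therefore also given with that GC trend removed from every library where this alters the call. Of 10 megakaryoblast markers, 7 reached 1 FPKM, with a summed level of 335 to 511 FPKM in CPL libraries and 335 to 384 FPKM in control libraries. VWF, a defining platelet and endothelial gene, was under 0.1 FPKM in each library, and GP1BB and PF4 were not analysed here. Of markers of other cell types, LYZ (a monocyte gene) and CD79A (a B cell gene) were above 1 FPKM, while CD3E, COL1A1, COL1A2, EPCAM and CDH1 were at or near 0 and CD14 and CSF1R stayed under 1 FPKM; DCN and KRT5 were not analysed here.

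The promoters of 3 of these genes are shown because they carry the sequence that MTF1 reads, on the most abundant metallothionein gene, on a weakly expressed neighbour and on the exporter gene that fell. Each is the stretch of 250 bases before the RefSeq gene start (GRCh38.p14), with the metal response element core in capitals, searched as TGCACNC and TGCGCNC on both strands. They lie at chr16:56608334-56608583 (plus strand, MT2A), chr16:56682220-56682469 (plus strand, MT1X) and chr1:211579162-211579411 (minus strand, SLC30A1).
MT2A: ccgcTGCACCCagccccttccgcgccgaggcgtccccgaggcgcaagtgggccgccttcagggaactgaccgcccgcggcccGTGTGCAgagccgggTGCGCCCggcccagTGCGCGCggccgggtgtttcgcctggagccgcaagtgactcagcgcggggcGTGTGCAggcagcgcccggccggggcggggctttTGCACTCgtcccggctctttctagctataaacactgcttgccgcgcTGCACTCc
MT1X: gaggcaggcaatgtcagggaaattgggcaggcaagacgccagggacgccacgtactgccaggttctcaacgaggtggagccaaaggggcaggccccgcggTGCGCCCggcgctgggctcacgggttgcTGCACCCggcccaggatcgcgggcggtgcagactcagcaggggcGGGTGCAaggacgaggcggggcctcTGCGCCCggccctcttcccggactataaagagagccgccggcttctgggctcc
SLC30A1: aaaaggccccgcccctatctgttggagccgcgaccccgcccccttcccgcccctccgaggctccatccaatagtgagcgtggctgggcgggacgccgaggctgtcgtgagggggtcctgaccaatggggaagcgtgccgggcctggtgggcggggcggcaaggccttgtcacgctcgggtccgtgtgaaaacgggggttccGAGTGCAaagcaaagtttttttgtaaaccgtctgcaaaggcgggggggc

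Promoter windows of 6 of the 10 genes were found in the RefSeq table (MT2A, MT1X, MTF1, SLC30A1, SLC30A5 and SLC39A10), each of 300 bases with 50 bases after the start included. MT2A held 8 cores, of which 7 lie in the stretch above, MT1X held 4, and SLC30A1 held 2, of which 1 lies in the stretch above. No cores overlapped each other. The windows of MTF1 and SLC30A5 held none, and of 2 windows of SLC39A10, 1 held a single core after the start. Among 27305 promoter windows, 1 per gene, 29.3% held at least 1 core, 8.59% at least 2, 0.593% at least 4 and 0.022% at least 8. A match is a description of the letters and not evidence of binding.

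**Figure D1:**
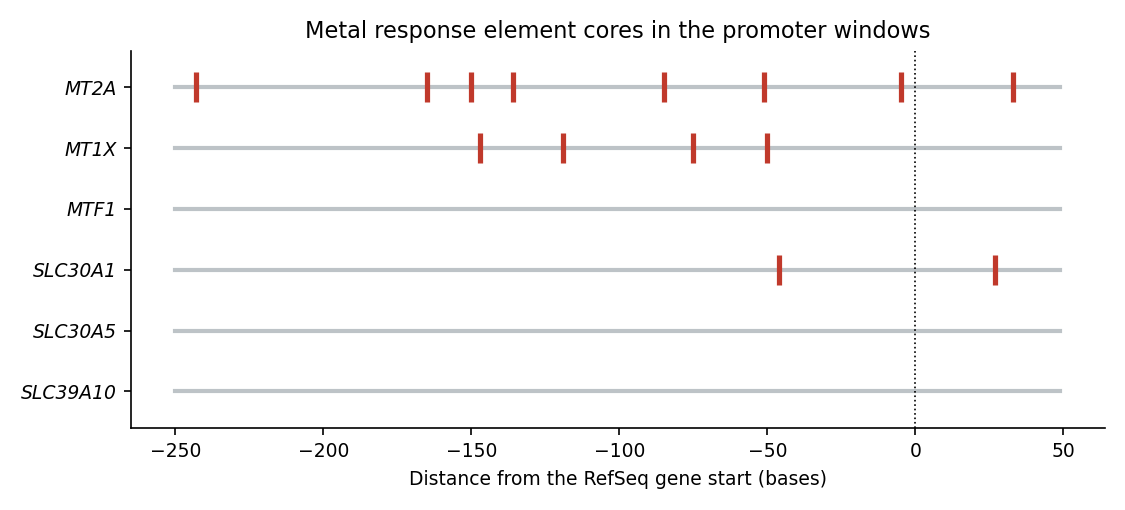
Metal response element cores (red ticks, both strands) by distance in bases from the RefSeq gene start in 300-base promoter windows (grey lines) of 6 genes. MT2A holds 8 cores and MT1X 4, SLC30A1 holds 2, and MTF1, SLC30A5 and the first of 2 SLC39A10 windows hold none.

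In CPL-treated cells the zinc exporter gene SLC30A1 was at 0.536 of the control mean, while the abundant metallothionein MT2A, the factor MTF1 and the other zinc transporters on the list did not pass the test. Across 13092 tested genes, all 9 measured members among them, limma called 1 member lower and none higher in CPL at an adjusted p under 0.05 (Benjamini-Hochberg over all tested genes), and 3 members (SLC30A1, MT1G and MT1F) had an unadjusted p under 0.05. The background of such calls was 1.76% of tested genes in either direction and 0.665% lower in CPL. An unadjusted p under 0.05 was held by 2558 of the 13092 tested genes, in either direction. The median log2 change of the 9 members was −0.0041, beside −0.0051 for all tested genes. In 3 of the 9 members, SLC30A1, MT1G and MT1F, every CPL library lay below every control library, a pattern held by 14.9% of all tested genes, and in none did every CPL library lie above, as in 14.1% of all tested genes. In bulk RNA, fewer expressing cells and less RNA per cell cannot be told apart.

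**Figure D2:**
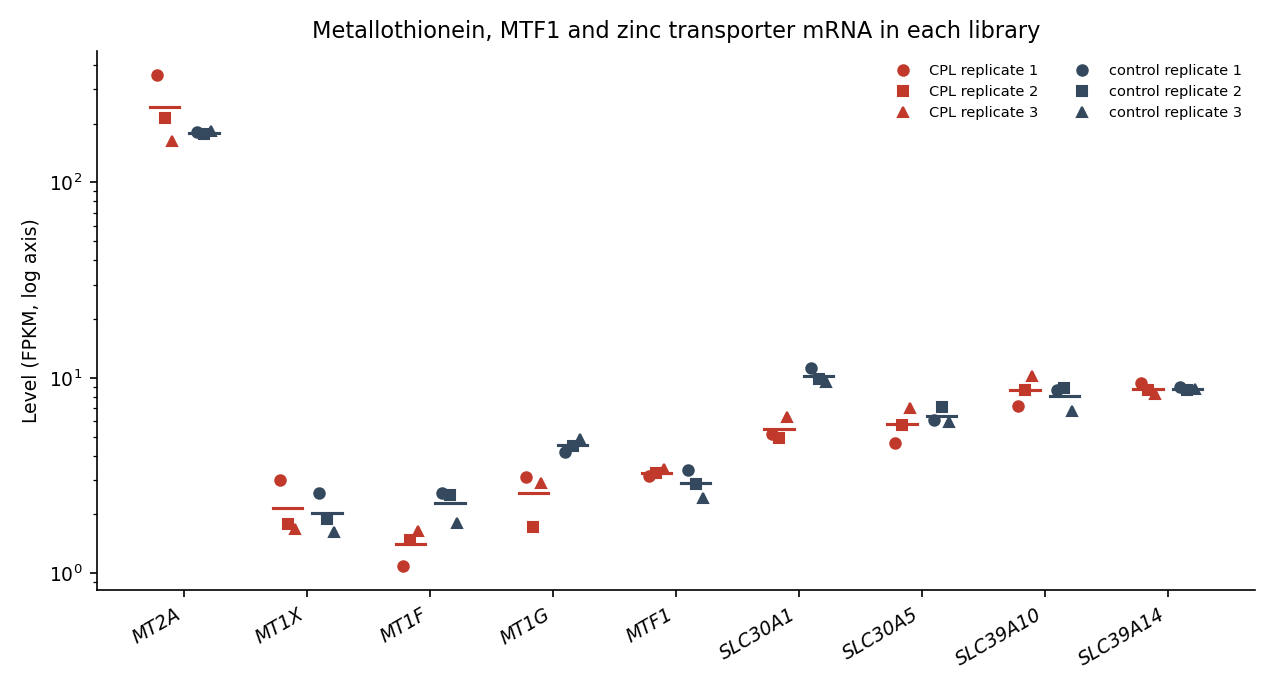
FPKM (log axis) of the 9 measured genes in each library, CPL in red and control in dark blue, with symbols for replicates and bars for group means (n = 3 each). SLC30A1, MT1G and MT1F have all CPL libraries below all controls, and MT2A spans 162 to 353 FPKM in CPL but 176 to 182 FPKM in control.

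SLC30A1 (ENSG00000170385, chromosome 1, 211571568 to 211578742, minus strand, GRCh38) encodes ZnT1, the exporter that moves zinc across the plasma membrane. It had 5.14, 4.91 and 6.32 FPKM in CPL replicates 1, 2 and 3, against 11.2, 9.87 and 9.50 FPKM in control replicates 1, 2 and 3. The groups did not overlap, and the highest CPL library was well under the lowest control. These values rested on 435 to 556 reads in CPL libraries and 881 to 985 reads in control libraries, where counting error alone is 3.19% to 4.79% of the value. The mean was 5.46 ± 0.76 FPKM in CPL and 10.2 ± 0.9 FPKM in control (SD, n = 3 each), a ratio of 0.536. On the log2(FPKM + 1) scale, which understates the change of low genes, SLC30A1 fell by 0.80 ± 0.12 (SE, 95% interval −1.08 to −0.51, limma adjusted p = 0.0297). With the GC trend removed the change was −0.68 ± 0.10 (limma adjusted p = 0.00700), in a fit that called 6.29% of all tested genes lower. The call was lost without CPL replicate 2 (limma adjusted p = 0.126) or without control replicate 1, 2 or 3 (0.147, 0.134 and 0.122). There the log2 change lay between −0.84 and −0.73. The call was also lost with no filter on low values (limma adjusted p = 0.115) and with the replicate number as a block (0.0746). It was kept without CPL replicate 1 (limma adjusted p = 0.0208) or CPL replicate 3 (0.0298), and with the block in the fit with the GC trend removed (0.0132).

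SLC30A5 (chromosome 5, 69093646 to 69131069, plus strand) encodes ZnT5, which loads zinc into the early secretory pathway together with the product of SLC30A6. It had 4.66, 5.77 and 6.99 FPKM in CPL replicates 1, 2 and 3 and 6.08, 7.07 and 5.94 FPKM in control replicates 1, 2 and 3. The groups overlapped, with the lowest and nearly the highest value both in CPL libraries. The log2 change was −0.12 ± 0.15 (SE, 95% interval −0.47 to 0.22, limma adjusted p = 0.675). The lowest library was CPL replicate 1, the library with the strongest GC trend, and the transcript's GC content was 39.95%. With the trend removed the SLC30A5 values were 5.64, 5.79 and 6.56 FPKM in CPL replicates 1, 2 and 3 and 5.76, 6.55 and 5.97 FPKM in control replicates 1, 2 and 3, which still overlapped.

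Of 8 other zinc exporter genes of the SLC30 family, 3 (SLC30A6, SLC30A7 and SLC30A9) passed the expression filter, set at 1 FPKM in 3 or more libraries, and limma called none of them, nor had any an unadjusted p under 0.05. Their median log2 change was 0.057, beside −0.0051 for all tested genes. SLC30A6, the partner of SLC30A5 and the most abundant of the 8, was at 16.5 ± 3.6 FPKM in CPL and 14.1 ± 1.1 FPKM in control (SD, n = 3 each, limma adjusted p = 0.53). Its change was 0.32 with the GC trend removed (limma adjusted p = 0.0431), a fit in which 6.97% of all tested genes were called higher. SLC30A4, which transports zinc into vesicles, was the least abundant, at 0.013 ± 0.004 FPKM in CPL and 0.006 ± 0.010 FPKM in control. SLC30A1 was thus the only one of 5 tested exporter genes past the threshold, though the difference between it and the others was not tested.

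MT2A (ENSG00000125148, chromosome 16, 56608199 to 56609497, plus strand) encodes a widely expressed and often the most abundant human metallothionein. It had 353, 213 and 162 FPKM in CPL replicates 1, 2 and 3, against 181, 176 and 182 FPKM in control replicates 1, 2 and 3. CPL libraries lay on both sides of the controls, with CPL replicate 1 far above and CPL replicate 3 below. Read numbers were 7105, 4478 and 3379 in CPL replicates 1, 2 and 3 and 3444 to 4171 in control libraries, so counting error alone, at 1.19% to 1.72%, is much smaller than the spread among CPL libraries. The mean was 243 ± 99 FPKM in CPL and 179.7 ± 3.3 FPKM in control (SD, n = 3 each). Its log2 change was 0.36 ± 0.25 (SE, 95% interval −0.24 to 0.95, limma adjusted p = 0.471).

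The higher mean of MT2A in CPL rested on 1 library. Without CPL replicate 1 its log2 change was 0.048 (limma adjusted p = 0.849). The longest annotated MT2A transcript has a GC content of 53.9%. With the GC trend removed the MT2A values were 313, 214 and 170.3 FPKM in CPL replicates 1, 2 and 3. They were 179.9, 185 and 186 FPKM in control replicates 1, 2 and 3. CPL replicate 1 was still the highest of the 6 libraries, and CPL replicate 3 was still below each control.

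The 3 measured MT1 genes are neighbours of MT2A on chromosome 16 and were far less abundant. MT1F (56657694 to 56660698, plus strand), MT1G (56666731 to 56668065, minus strand) and MT1X (56682424 to 56684196, plus strand) lie within 75998 bases that begin with MT2A and hold 5 rows of the table. MT1F and MT1G had all CPL libraries under all controls without passing the test, and MT1X had overlapping groups. MT2A made up 96.3% to 98.0% of the summed metallothionein FPKM in CPL libraries and 95.1% to 95.6% in control libraries.

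MT1G had 3.10, 1.73 and 2.91 FPKM in CPL replicates 1, 2 and 3, against 4.19, 4.46 and 4.88 FPKM in control replicates 1, 2 and 3. The groups did not overlap. The values stood on 21 to 36 reads in CPL libraries and 46 to 62 reads in control libraries, so that counting error alone amounts to 12.7% to 21.8% of a value. MT1G averaged 2.58 ± 0.74 FPKM in CPL and 4.51 ± 0.35 FPKM in control (SD, n = 3 each), with a log2 change of −0.64 ± 0.17 (SE, 95% interval −1.04 to −0.24, limma adjusted p = 0.111). It was called lower in 3 of 13 alternatives. With the GC trend removed (log2 change −0.75, limma adjusted p = 0.0238), 6.29% of tested genes were called lower. With the replicate block added to that fit (−0.75, limma adjusted p = 0.0365), 521 of 13092 tested genes were. Without CPL replicate 1 (−0.75, limma adjusted p = 0.0468), 2.59% were. With the GC trend removed and CPL replicate 1 left out together, MT1G was not called (−0.75, limma adjusted p = 0.0583). Over all 13 alternatives its adjusted p ranged from 0.0238 to 0.32.

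MT1F had 1.09, 1.47 and 1.65 FPKM in CPL replicates 1, 2 and 3, against 2.57, 2.53 and 1.81 FPKM in control replicates 1, 2 and 3. All CPL libraries were below all controls, with the highest CPL and the lowest control value close together. From 32 to 50 reads in CPL libraries and 58 to 87 in control libraries, the log2 change was −0.46 ± 0.16 (SE, 95% interval −0.82 to −0.088, limma adjusted p = 0.18). No alternative called it, with adjusted p from 0.118 to 0.433. MT1X had 2.99, 1.78 and 1.69 FPKM in CPL replicates 1, 2 and 3 and 2.58, 1.89 and 1.63 FPKM in control replicates 1, 2 and 3. These groups overlapped almost fully (log2 change 0.04 ± 0.20 SE, 95% interval −0.42 to 0.50, limma adjusted p = 0.925).

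Reads of the family can be divided between near-identical genes. Among all 50-base windows of each longest coding transcript in GENCODE 29, the share that also occurs exactly in a transcript of another gene was 4.88% for MT2A, 3.59% for MT1F, 14.3% for MT1G and 55.8% for MT1X. The windows of MT1X are shared with AC026461.1, an annotated transcript on the same strand that overlaps it, and those of MT1G with MT1E, MT1F, MT1H, MT1M, MT1X, MT2A and pseudogenes. The single values of MT1G and MT1X are therefore uncertain, to a degree that these shares do not measure and that was not tested. The summed reads of the 4 measured metallothionein genes, which do not depend on how reads were split among these 4 and are not scaled for depth, were 7255, 4595 and 3512 in CPL replicates 1, 2 and 3 and 3628, 4380 and 4179 in control replicates 1, 2 and 3. The summed FPKM, in which each gene is divided by its own length and which a split can therefore move, was 360.5, 218 and 168 in CPL replicates 1, 2 and 3 and 190.3, 185 and 190.5 in control replicates 1, 2 and 3. As for MT2A alone, the CPL sums of both kinds lay on both sides of the controls. The difference of mean summed FPKM, CPL minus control, was 60.3 FPKM (two-sided exact permutation test, p = 0.4, where 3 against 3 libraries cannot go below 0.1), and it was 4.56 FPKM without CPL replicate 1.

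Of 8 other metallothionein genes looked for, MT1H alone had a row and it stayed under the filter. It had 3, 5 and 8 reads in CPL replicates 1, 2 and 3 and 8, 6 and 17 reads in control replicates 1, 2 and 3, which overlap. MT1A, MT1B, MT1M, MT1L, MT1HL1, MT3 and MT4 were not analysed here.

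MTF1 (ENSG00000188786, chromosome 1, 37809567 to 37859620, minus strand) encodes the zinc-sensing transcription factor itself, whose activity is set mainly by zinc binding rather than by its mRNA level. It had 3.16, 3.25 and 3.41 FPKM in CPL replicates 1, 2 and 3 and 3.38, 2.88 and 2.42 FPKM in control replicates 1, 2 and 3. The CPL values were close together and lay within or just above the control range. The log2 change was 0.14 ± 0.13 (SE, 95% interval −0.15 to 0.44, limma adjusted p = 0.564), and no alternative called it. With the GC trend removed the MTF1 values were 3.33, 3.27 and 3.36 FPKM in CPL replicates 1, 2 and 3. They were 3.25, 2.81 and 2.47 FPKM in control replicates 1, 2 and 3, each below every CPL library. The gap between 3.25 FPKM in control replicate 1 and 3.27 FPKM in CPL replicate 2 was smaller than counting error alone (4.77% to 5.51%). The share of all tested genes with groups apart after removal of the trend was not counted. The log2 change in that fit was 0.17 (limma adjusted p = 0.272).

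**Figure D3:**
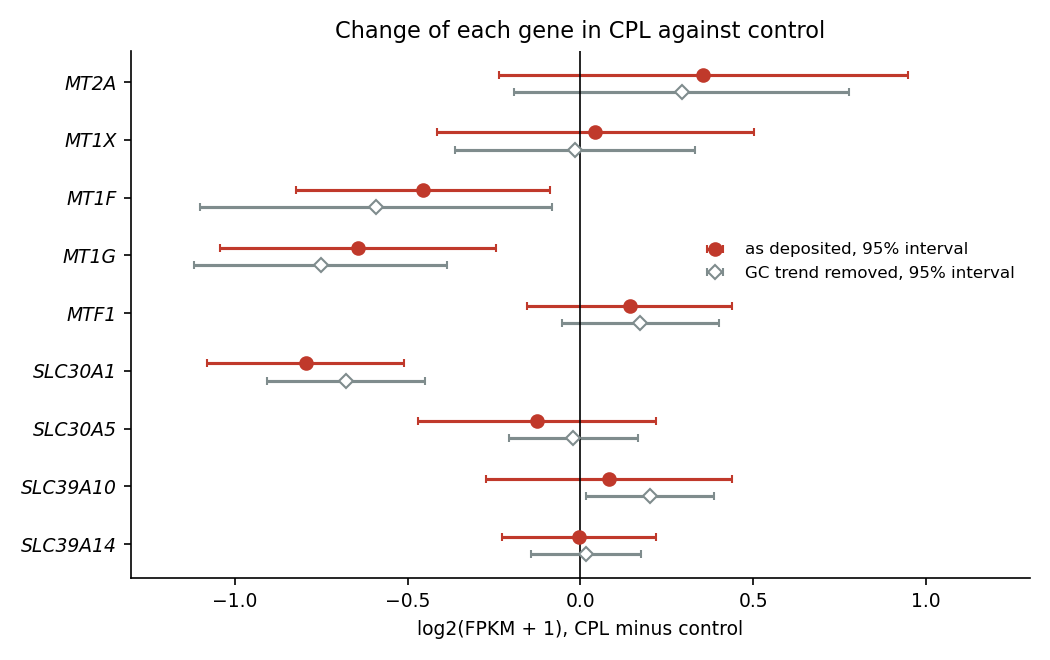
Change of each gene in log2(FPKM + 1), CPL minus control, with 95% intervals from limma, as deposited (red circles) and with each library's GC trend removed (grey diamonds). The interval of SLC30A1 runs from −1.08 to −0.51, and that of MT2A from −0.24 to 0.95.

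Neither importer gene passed the test. SLC39A14 (chromosome 8, 22367249 to 22434129, plus strand) encodes ZIP14, which takes up zinc, iron and manganese and is induced by inflammation in the liver. It had 9.37, 8.67 and 8.29 FPKM in CPL replicates 1, 2 and 3 and 8.96, 8.70 and 8.73 FPKM in control replicates 1, 2 and 3. The groups overlapped and the means were 8.78 ± 0.55 FPKM in CPL and 8.80 ± 0.14 FPKM in control (SD, n = 3 each), with a log2 change of −0.0041 ± 0.095 (SE, 95% interval −0.23 to 0.22, limma adjusted p = 0.987).

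SLC39A10 (chromosome 2, 195575977 to 195737702, plus strand) encodes ZIP10, a plasma membrane importer whose gene MTF1 represses when zinc is high in mouse and zebrafish. It had 7.14, 8.65 and 10.2 FPKM in CPL replicates 1, 2 and 3 and 8.65, 8.82 and 6.79 FPKM in control replicates 1, 2 and 3. The groups overlapped (log2 change 0.08 ± 0.15 SE, 95% interval −0.27 to 0.44, limma adjusted p = 0.797). Its transcript has a GC content of 37.6%, and with the GC trend removed the values were 8.82, 8.69 and 9.43 FPKM in CPL replicates 1, 2 and 3 and 8.15, 8.08 and 6.86 FPKM in control replicates 1, 2 and 3. In that fit the groups no longer overlapped, and the log2 change of 0.20 did not pass (limma adjusted p = 0.135). How many of all tested genes had groups apart in that fit was not counted.

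Of 12 other zinc importer genes of the SLC39 family, 11 had a row and 9 were tested. None passed in limma, and the median log2 change was 0.15. An unadjusted p under 0.05 was held by 2 of the 9, beside 2558 of all 13092 tested genes. The 2, named after their values were seen, had changes of opposite sign. SLC39A13, which encodes the endoplasmic reticulum and Golgi transporter ZIP13, had 4.95, 3.29 and 2.87 FPKM in CPL replicates 1, 2 and 3 and 1.80, 2.21 and 1.78 FPKM in control replicates 1, 2 and 3, with every CPL library above every control. Its log2 change was 0.66 ± 0.18 (SE, limma adjusted p = 0.113). SLC39A8, which encodes the zinc and manganese importer ZIP8, had 24.6, 29.8 and 30.6 FPKM in CPL replicates 1, 2 and 3 and 36.3, 36.8 and 36.8 FPKM in control replicates 1, 2 and 3, with every CPL library below every control. The log2 change of SLC39A8 was −0.36 ± 0.11 (SE, limma adjusted p = 0.138).

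With the GC trend removed, SLC39A6, SLC39A9 and SLC39A13 were called higher in CPL and SLC39A8 lower (limma adjusted p = 0.0209, 0.0441, 0.0423 and 0.0277), so 4 of 9 passed in a fit that called 13.3% of all tested genes. The most abundant of the other importers over the 6 libraries was SLC39A7, which releases zinc from the endoplasmic reticulum, at 37.4 ± 1.9 FPKM in CPL and 33.7 ± 4.9 FPKM in control (SD, n = 3 each, limma adjusted p = 0.519), although in control the mean of SLC39A8 was above it at 36.6 ± 0.28 FPKM, a gap smaller than the SD of SLC39A7 in control. The least abundant over the 6 libraries was SLC39A5, at 0.051 ± 0.052 FPKM in CPL and 0.038 ± 0.050 FPKM in control, although in CPL SLC39A2 was below it at 0.041 ± 0.041 FPKM.

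The order of levels differed between the groups, most in the place of SLC30A1. In CPL cells MT2A came first, followed by SLC39A14, SLC39A10, SLC30A5, SLC30A1, MTF1, MT1G, MT1X and MT1F. Among neighbours in that order the library ranges overlapped for SLC39A14 with SLC39A10, SLC30A5 with SLC30A1, and MT1G with MT1X. In control cells MT2A was followed by SLC30A1, whose lowest library (9.50 FPKM) exceeded the highest of SLC39A14 (8.96 FPKM), and then by SLC39A14, SLC39A10, SLC30A5, MT1G, MTF1, MT1F and MT1X. There the ranges overlapped between SLC39A14 and SLC39A10, SLC39A10 and SLC30A5, MTF1 and MT1F, and MT1F and MT1X. The order of the MT1 genes depends on the length used, since merged exons span 750 bases for MT1G, 1773 for MT1X and 1889 for MT1F. By reads summed over the libraries of a group, MT1G was the lowest of these genes in both groups. MT1G, MT1X and MT1F had 92, 181 and 127 reads in CPL and 169, 177 and 216 in control. The SD of MT2A was 40.8% of its mean in CPL and 1.81% in control.

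Genes of copper handling, a metal that metallothioneins also bind, did not pass in limma for any of 8 tested of 10 listed. Their median log2 change was −0.077. An unadjusted p under 0.05 was held by 2 of the 8, beside 2558 of all 13092 tested genes. These 2 were COX17 and SCO1, named after their values were seen, at log2 changes of −0.30 and −0.26. The most abundant was ATP7B, a copper-exporting ATPase, at 19.2 ± 1.0 FPKM in CPL and 18.8 ± 1.2 FPKM in control (SD, n = 3 each, limma adjusted p = 0.914). The least abundant was the copper transporter gene SLC31A2, listed at 0.026 FPKM at most in CPL libraries and at 0 in every control library.

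Outside the family, 6 genes that cadmium or excess zinc is known to induce in other cells were looked at, of which 5 were tested. Higher in CPL were 2, HMOX1 and SLC7A11, where 1.09% of all tested genes were called higher, and the median log2 change of the 5 was 0.36. HMOX1, which encodes haem oxygenase 1, had 565, 410.5 and 359.9 FPKM in CPL replicates 1, 2 and 3 and 81.4, 58.6 and 73.6 FPKM in control replicates 1, 2 and 3 (log2 change 2.61 ± 0.19 SE, limma adjusted p = 0.00214). The cystine transporter gene SLC7A11 had 19.5, 20.9 and 22.5 FPKM in CPL replicates 1, 2 and 3 and 6.35, 6.32 and 4.51 FPKM in control replicates 1, 2 and 3 (log2 change 1.72 ± 0.14 SE, limma adjusted p = 0.00361). HMOX1, SLC7A11 and GCLM are also targets of the oxidative stress factor NRF2. The heat shock genes HSPA1B and DNAJB1 and the glutathione synthesis gene GCLM did not pass, with log2 changes of 0.25, 0.011 and 0.36, and HSPA1A stayed under the filter. GCLM was called higher with the GC trend removed (log2 change 0.47, limma adjusted p = 0.0037), a fit in which 6.97% of all tested genes were called higher.

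**Figure D4:**
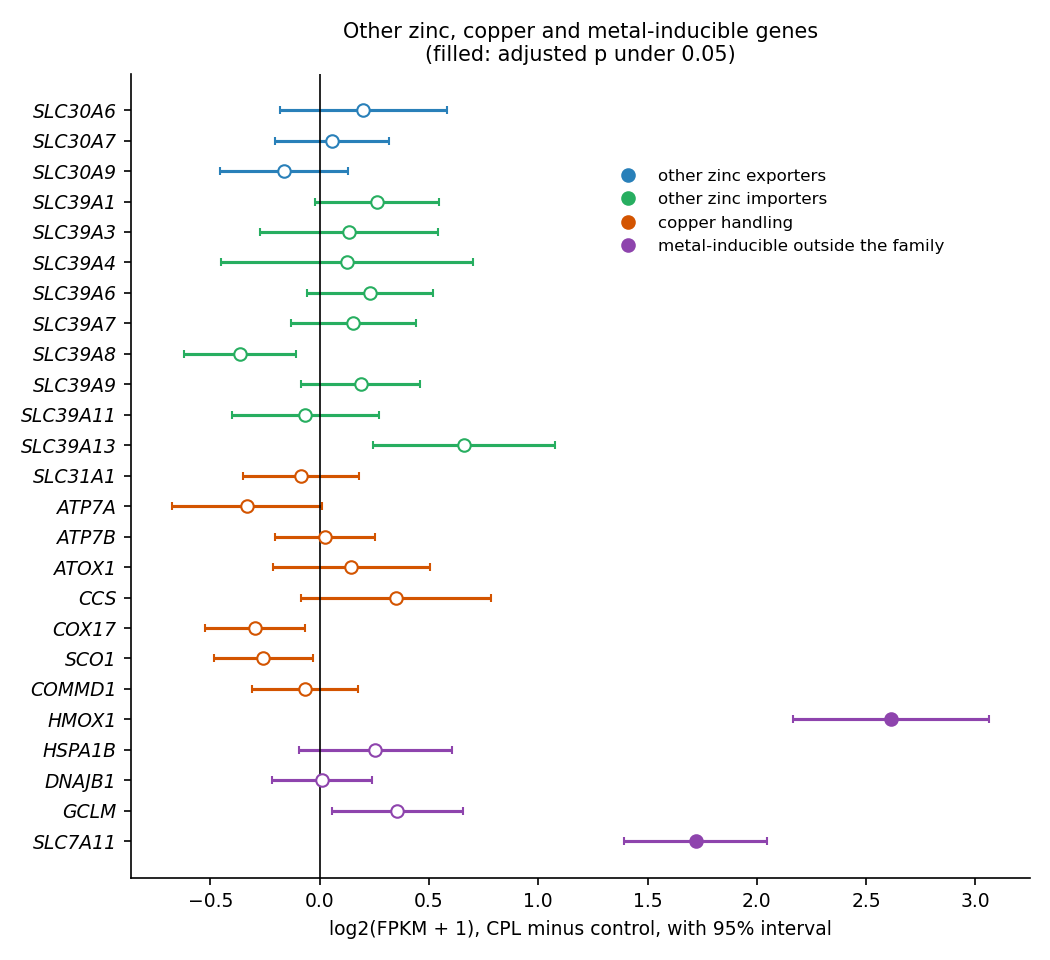
Change in log2(FPKM + 1), CPL minus control, with 95% intervals, for 25 tested genes of zinc export, zinc import, copper handling and metal induction. Filled points passed an adjusted p of 0.05, which HMOX1 (2.61) and SLC7A11 (1.72) did and none of the transporter or copper genes did.

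Genes whose pattern over the 6 libraries was most like that of each of 3 members were ranked by Pearson correlation of log2(FPKM + 1), a description in which group, depth and GC content are shared by all points. Nearest to SLC30A1 were ILKAP, HLA-DPA1, SPRYD4, PRPF3 and ARL15 (r = 0.990 to 0.995), each lower in mean in CPL and none past the test (limma adjusted p = 0.0565 for ARL15 and higher for the rest). Nearest to MT2A were CYB5R3, BCL2L12, E2F1, VPS51 and SPG7 (r = 0.997 to 0.999), whose transcripts have a GC content of 55.6% to 65.5%. Nearest to SLC39A10 were MAN1A2, FAM102B, ABI2, NIN and NPEPPS (r = 0.990 to 0.997), at 36.2% to 42.2% GC. The part of GC content in these likenesses was not tested.

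**Figure D5:**
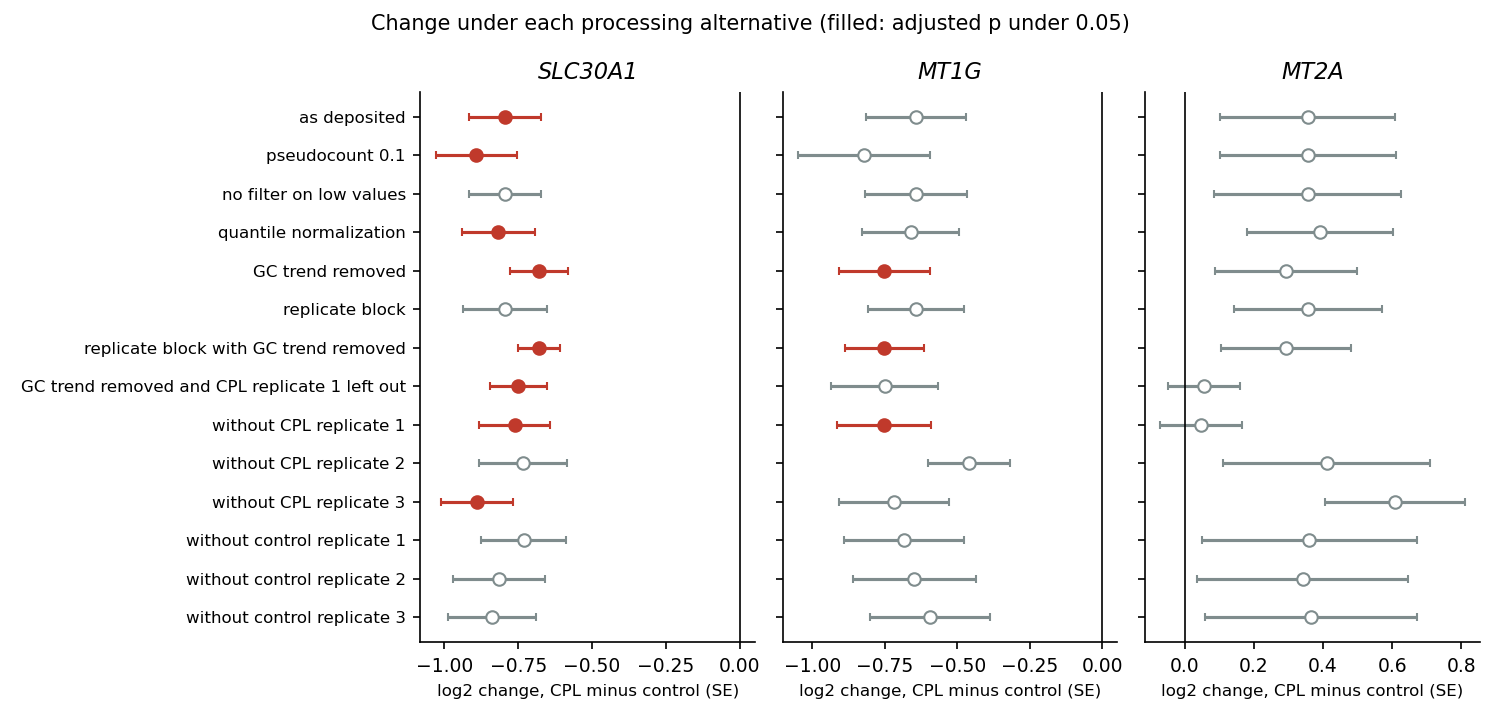
Log2 change with SE, CPL minus control, of SLC30A1, MT1G and MT2A as deposited and under 13 processing alternatives. Filled points have a limma adjusted p under 0.05. SLC30A1 stays below 0 in each, at −0.89 to −0.68, and MT2A is at 0.048 without CPL replicate 1.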

How the data were processed

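Polyadenylated RNA of SET-2 cells was read as single-end 50-base reads, per the labels' protocols. Whether strand was kept is not stated there. A deposited table of the authors gives FPKM for 30735 genes. The table is described as FPKM, though no column header names the unit. Multiplied by the merged exon length in GENCODE 29, 98.7% to 99.0% of values worth up to 20 reads came within 0.1 of a whole read. The value of 1 read in each library was fitted to make that share as high as possible. The share is therefore not an independent check of the unit. The submitters' processing notes name the build GRCh38 and DESeq2 1.4.5, RSEM 1.2.12, Bowtie2 2.2.5 and HISAT2 2.0.4, with no roles stated. Because FPKM is scaled to the library total, very abundant genes can depress all others. Positions are those of the table.

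The 13092 genes that reached 1 FPKM in 3 or more libraries were set to log2(FPKM + 1) and fitted with limma 3.58.1 (R 4.3.3), group as the only term, trend and robust moderation, two-sided, Benjamini-Hochberg at 0.05. The main fit was tested on simulated reads that carried no GC trend, so that test does not cover the trend seen in these libraries. Other tools were Python 3.11.15, numpy 2.4.6, pandas 2.3.3, scipy 1.17.1 and matplotlib 3.10.9. Alternatives were a pseudocount of 0.1, no filter, quantile normalization, removal of a loess trend (span 0.5) on the GC content of each gene's longest transcript, the replicate number as a block, and 1 library omitted at a time. Replicates differed beyond counting noise (chi-square over its degrees of freedom 7.84 to 56.5), and each library was taken as 1 sample. The largest values, 33.9 and 56.5, were for pairs with CPL replicate 1. Such a spread can be technical and does not show that the replicates were independent. Of the IDs, 30683 were found in GENCODE 29. Promoters are RefSeq's.

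The members, lists and alternatives were chosen with earlier results of these data known. All members were named, from each other list those that passed or else its most and least abundant genes, and the 5 genes most like SLC30A1, SLC39A10 and MT2A. Other genes are marked as named after their values were seen.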

Additional observations from a re-analysis of the deposited data

How the results depend on the processing

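Of 117 recomputed changes of single members, 94 kept their direction and side of the threshold, 6 lost a call, 3 gained one and 14 turned in sign, none of these called. The number of genes called in CPL against control, 230, was 25 with no filter on low values, 1736 with the GC trend removed, 63 with a replicate block, 1071 with the block and GC trend removed together, 1139 with the GC trend removed and CPL replicate 1 left out, and 18 to 703 when 1 library was left out. Members called, 1 as deposited, were 0 with no filter or with the replicate block, 2 with the GC trend removed, 2 with that and the block, and 0 to 2 without 1 library. SLC30A1 had a log2 change of −0.80 both with no filter (limma adjusted p = 0.115) and with the replicate block (0.0746), −0.89 to −0.73 without 1 library, and passed in 7 of 13 alternatives (adjusted p 0.00700 to 0.147). With no filter 30735 genes were adjusted over. MT1X turned to −0.016 with the GC trend removed, with or without the replicate block, to −0.13 with CPL replicate 1 also left out, and ranged from −0.14 to 0.17 without 1 library. SLC30A5 turned to 0.016 with the GC trend removed and CPL replicate 1 left out, and ranged from −0.25 to 0.0016 without 1 library. SLC39A10 ranged from −0.028 to 0.20 and SLC39A14 from −0.047 to 0.032 without 1 library, and SLC39A14 was 0.015 with the GC trend removed, with or without the block. For turned signs the cause was not tested. The column headers give equally numbered CPL and control libraries a common prefix, whose meaning is not stated. Deviations of equally numbered libraries correlated at 0.0836, 0.0885 and −0.168, and not every library correlated best with its own number. These deviations still carry the GC trend of each library, so they cannot tell whether equally numbered libraries shared a batch. The metallothionein sum differed by 4.56 to 100.7 FPKM without 1 library, by 59.2 FPKM over all 6 rows beginning MT1 or MT2A and by 60.7 FPKM after quantile normalization. At 21 to 87 reads per library, MT1F and MT1G limit what can be called.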
